A study of Mus musculus with 28 samples.

Results

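The genes described here encode the respiratory chain of mitochondria (complexes I to IV), the ATP synthase (complex V) and the proteins of the mitochondrial ribosome. They were chosen by symbol, as genes that start with Nduf, Uqcr, Atp5, Cox followed by 4 to 8, Mrpl or Mrps with a digit, or that read Sdha to Sdhd. By this rule 141 of the 18274 genes named in any of the 5 deposited tables were members. They comprised 39 genes named for complex I, 3 for complex II, 6 for complex III, 14 for complex IV, 13 for complex V and 66 for the mitoribosome. In RefSeq 174 coding genes match the rule, so that 33 are named in no table. By table, 16 members were listed in RNA-seq, 16 in ATAC-seq, 129 in H3K4me3, 29 in RNA polymerase II (Pol2) and 44 in H3K27me3, and 2 members, Cox7a2l and Ndufb9, occurred in 4 tables.

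All libraries came from hair follicle stem cells (HFSCs) of mice of the strain labelled 132-C67BL/6J, sorted as CD34 and α6-integrin double-positive cells from trypsin-treated skin, with no transgene or treatment named. The ages compared were 6 months (young) and 24 months (old), by the labels for RNA-seq and ATAC-seq and by the series design for ChIP-seq. RNA-seq had 3 young and 3 old samples, ATAC-seq 4 and 4, H3K27me3 3 and 3, and H3K4me3 and Pol2 2 and 2 each, all called biological replicates in the design. Every comparison is of old with young cells, and the series title asks about accessibility at promoters that carry H3K4me3 and H3K27me3 together.

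Oxidative phosphorylation passes electrons from NADH through complex I, or from succinate through complex II, to complex III and then by cytochrome c to oxygen at complex IV. The proton gradient that complexes I, III and IV build drives ATP synthesis at complex V. A few core subunits are encoded in mitochondrial DNA and are made by the mitoribosome, whose proteins, like most respiratory subunits, come from nuclear genes. Quiescent stem cells of the follicle are known for a mostly glycolytic metabolism. NRF1, the ETS factor GABPA and YY1 are textbook activators of nuclear genes for the respiratory chain.

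Only the ATAC-seq table holds a value per library, with 2456110 to 2773284 reads over the listed peaks in young and 1572998 to 1946804 in old libraries. These sums are no library depths, and the depth of the other assays is unknown. All 10 HFSC markers checked (Cd34, Itga6, Krt15, Sox9, Lhx2, Nfatc1, Tcf7l2, Lgr5, Krt14 and Krt5) had a promoter peak of H3K4me3 and of Pol2. H3K4me3 promoter peaks were found at 2 of 5 markers of differentiated interfollicular cells, 3 of 3 sebaceous and 3 of 4 fibroblast markers. They were also found at 2 of 4 melanocyte, 1 of 3 endothelial and 0 of 4 immune markers. Among these markers of other skin cells, only the sebaceous gene Fasn had a Pol2 promoter peak. No list of undifferentiated interfollicular cells was checked, so these counts do not set HFSCs apart from such cells. In RNA the authors' deposited table lists the immune marker Cd74 at a log2 fold change of −1.36 (adjusted p 2.36e-06), the fibroblast marker Col1a2 at −0.39 (0.0861) and the HFSC marker Nfatc1 at −0.34 (0.0948). The part of these shifts in the RNA values below was not tested.

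Most start sites of these genes lay in H3K4me3, the histone mark of active and poised promoters, and few in H3K27me3, the mark left by Polycomb. Of 147 RefSeq genes that match the rule and have a start site in the RefSeq promoter table (GRCm38.p6), 143 (97.3%) had a start inside an H3K4me3 peak, against 57.6% of 17492 coding genes. A Pol2 peak covered a start of 28 of the 147 genes (19%, against 15%), and an H3K27me3 peak covered a start of 0 of 147 (0%, against 13%). The promoter table has no entry for 21 members, so these are not among the 147. Of the 21, 17 had an H3K4me3 promoter peak at distance 0 from a start by the authors' annotation, and 2, Cox4i2 and Cox6a2 of complex IV, had an H3K27me3 peak there and no H3K4me3 peak. Each table lists 1 set of peaks for both ages, and these shares were not tested. The 4 of the 147 genes without H3K4me3 at their start were Cox7a1 and Cox8b, isoforms of complex IV subunits of heart and skeletal muscle, Cox7b2, an isoform of testis, and Ndufb4b, a second gene copy of Ndufb4.

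**Figure D1:**
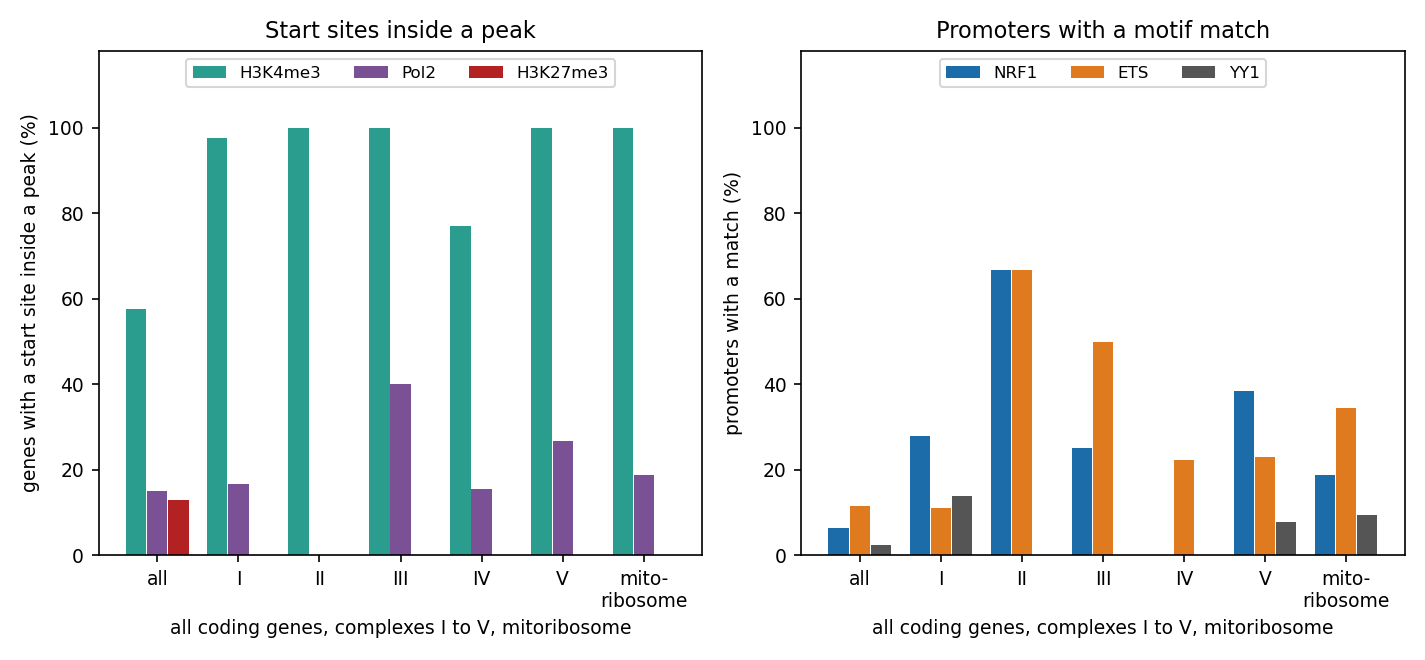
The left panel gives the percent of genes with a start site inside a peak of H3K4me3, Pol2 or H3K27me3, for all RefSeq coding genes, complexes I to V and the mitoribosome, and the right panel gives the percent of promoters with the NRF1, ETS or YY1 letters. H3K4me3 stands at 76.9% in complex IV and at 97.6% or more in the other groups, and H3K27me3 at 0% in all 6 groups of the 147 genes in the promoter table, which does not hold Cox4i2 and Cox6a2.

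Promoters of members held the letters of respiratory gene activators more often than promoters at large. The window was 250 bases before to 50 bases after each start, and 120 members had 129 such promoters, some of which overlap because a gene has more than 1 start or shares its promoter with a neighbour. The NRF1 motif, 2 GCGC blocks that enclose any base and a T, was on either strand found in 23.3% of member promoters, against 6.38% of 21263 coding promoters. The ETS letters CCGGAAG were found in 27.1% against 11.6%, and the YY1 letters ANATGGCGG in 9.3% against 2.48%. At least 1 of the 3 was present in 51.9% of member promoters, 18.4% of all coding promoters and 26.2% of promoters of genes with an H3K4me3 promoter peak. Of the letters for other factors, NF-Y (CCAAT) stood at 38.8% against 38.2% and the TATA box (TATAAA) at 8.53% against 12.6%. ESRRA (TNAAGGTCA) stood at 2.33% against 1.03%, which in members is 3 promoters. SP (GGGCGG) stood at 46.5% against 46.2% of all coding promoters, but among genes with an H3K4me3 promoter peak at 47.8% in members against 64.2%. In the latter comparison NRF1 letters stood at 23.5% against 9.46%, ETS at 27% against 16.1%, YY1 at 9.57% against 3.6% and the TATA box at 8.7% against 6.96%. None of these shares was tested. A CCAAT or GGGCGG match can overlap one of the other motifs, and a match is a description of letters only.

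By group, NRF1 letters stood in 27.8% of 36 complex I promoters, 38.5% of 13 complex V promoters and 18.8% of 64 mitoribosome promoters, and in none of 9 complex IV promoters. ETS letters stood in 34.4% of mitoribosome promoters and 11.1% of complex I promoters. Of the 12 YY1 matches, 10 began after the start site, and of 39 ETS matches 33 began within 100 bases before the start or after it. The 6 promoters printed below belong to members listed in the RNA table, 1 for each complex and the mitoribosome. They span 100 bases before to 50 bases after the start in the direction of the gene (RefSeq, GRCm38.p6). They are no fair sample, as they include every RNA-listed member found with any of the 3 motifs. Of RNA-listed members with a promoter entry, 4 had NRF1 letters and 8 had none, against 3 and 9 for ETS and 1 and 11 for YY1. For Atp5c1, with 2 starts, the start with more of the motifs was chosen. Capitals mark the NRF1, ETS and YY1 letters on either strand. The Ndufs6 window (chr13:73328433-73328582, minus strand) has NRF1 letters from −16 and YY1 letters from 35, and the Sdhd window (chr9:50603800-50603949, minus) has NRF1 from −79 and ETS from −46. The Uqcrh window (chr4:116075021-116075170, minus) has ETS letters from −10, the Cox7a2l window (chr17:83514284-83514433, minus) has none of the 3, the Atp5c1 window (chr2:10080383-10080532, minus) has NRF1 from −17, and the Mrpl57 window (chr14:57826139-57826288, plus) has NRF1 from −57 and ETS from 5.
Ndufs6: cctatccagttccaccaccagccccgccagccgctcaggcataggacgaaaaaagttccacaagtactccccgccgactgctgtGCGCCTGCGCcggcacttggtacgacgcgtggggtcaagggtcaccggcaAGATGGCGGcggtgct
Sdhd: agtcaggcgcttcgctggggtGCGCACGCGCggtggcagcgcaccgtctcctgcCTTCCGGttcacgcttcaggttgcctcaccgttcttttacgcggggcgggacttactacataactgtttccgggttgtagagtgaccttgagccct
Uqcrh: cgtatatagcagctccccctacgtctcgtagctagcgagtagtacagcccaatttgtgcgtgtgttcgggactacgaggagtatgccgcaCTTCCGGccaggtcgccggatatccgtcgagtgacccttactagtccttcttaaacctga
Cox7a2l: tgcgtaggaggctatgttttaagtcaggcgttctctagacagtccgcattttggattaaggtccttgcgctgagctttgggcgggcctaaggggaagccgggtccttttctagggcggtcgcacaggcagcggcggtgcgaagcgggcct
Atp5c1: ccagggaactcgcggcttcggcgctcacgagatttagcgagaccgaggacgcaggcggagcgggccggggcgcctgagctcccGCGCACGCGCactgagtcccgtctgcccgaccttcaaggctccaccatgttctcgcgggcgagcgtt
Mrpl57: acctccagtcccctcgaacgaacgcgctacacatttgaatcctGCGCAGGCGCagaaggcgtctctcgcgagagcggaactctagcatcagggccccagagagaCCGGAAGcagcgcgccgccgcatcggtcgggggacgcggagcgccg

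In RNA, 15 of the 16 listed members were higher in old cells and 1 was lower. No gene in the authors' deposited table has an adjusted p above 0.1, and it holds no values per sample, so each listed member had to differ and the count of listed members shows nothing by itself. Called, here and for ChIP-seq, means a deposited adjusted p under 0.05. Of the 16 members 11 were called, 10 higher and 1 lower, where 56.8% of the 597 listed genes were called, 38.0% as higher and 18.8% as lower. The median log2 fold change was 0.52 over the members and 0.41 over all listed genes in the authors' deposited table, in which 60.5% of listed genes were higher. Cytosolic ribosomal protein genes, the translation machinery outside mitochondria, had 48 listed, 48 higher and 41 called, with a median of 0.51 in the authors' deposited table. In sorted cells in bulk, fewer cells of a type and less RNA per cell cannot be told apart.

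Complex I gave 6 of the listed members. Ndufs6, an accessory subunit of the matrix arm, had the highest value of the 16, a log2 fold change of 0.82 (SE 0.20, adjusted p 0.00525) in the authors' deposited table. Of the membrane arm, Ndufb5 rose by 0.60 (SE 0.17, adjusted p 0.0362) and Ndufb9 by 0.50 (0.15, 0.0410) in the authors' deposited table, whereas Ndufc2 stood at 0.57 with an adjusted p of 0.0642. Ndufa4l2, a hypoxia-induced relative of Ndufa4 that the rule counts with complex I by its symbol, fell by 0.83 on the log2 scale (SE 0.23, adjusted p 0.0227) in the authors' deposited table and was the 1 member that fell. The listed complex I genes thus lay on both ends of the member range.

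In complex II, Sdhd, a membrane anchor of succinate dehydrogenase, stood at 0.43 with an adjusted p of 0.0763 in the authors' deposited table and was not called. Uqcrh, the hinge protein of complex III that helps cytochrome c bind, rose by 0.65 (SE 0.15, adjusted p 0.00257) in the authors' deposited table. Uqcrfs1, the Rieske iron-sulfur protein of the same complex, stood at 0.44 (0.0890) in the authors' deposited table. In complex IV, Cox7a2l, a factor of supercomplex assembly, rose by 0.44 (SE 0.13, adjusted p 0.0385) in the authors' deposited table. The structural subunits Cox7b at 0.50 (0.0685) and Cox4i1 at 0.46 (0.0519) were not called in the authors' deposited table.

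Atp5c1, the γ subunit that turns in the catalytic head of the ATP synthase, rose by 0.54 (SE 0.13, adjusted p 0.00298) in the authors' deposited table. Of the mitoribosome, Mrpl57 of the large subunit rose by 0.67 (SE 0.19, adjusted p 0.0267), and Mrps7 (0.63, 0.0326) and Mrps14 (0.60, 0.00736) of the small subunit rose as well in the authors' deposited table. None of the 15 genes on the list of mitochondrially encoded genes was in the RNA table. Nor was any of the 16 genes on the list for mitochondrial DNA maintenance and transcription. The range of the 14 higher members named here, 0.43 to 0.82, spanned less than 1 log2 unit, and with SEs from 0.13 to 0.20 for these members neighbouring values cannot be ordered.

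**Figure D2:**
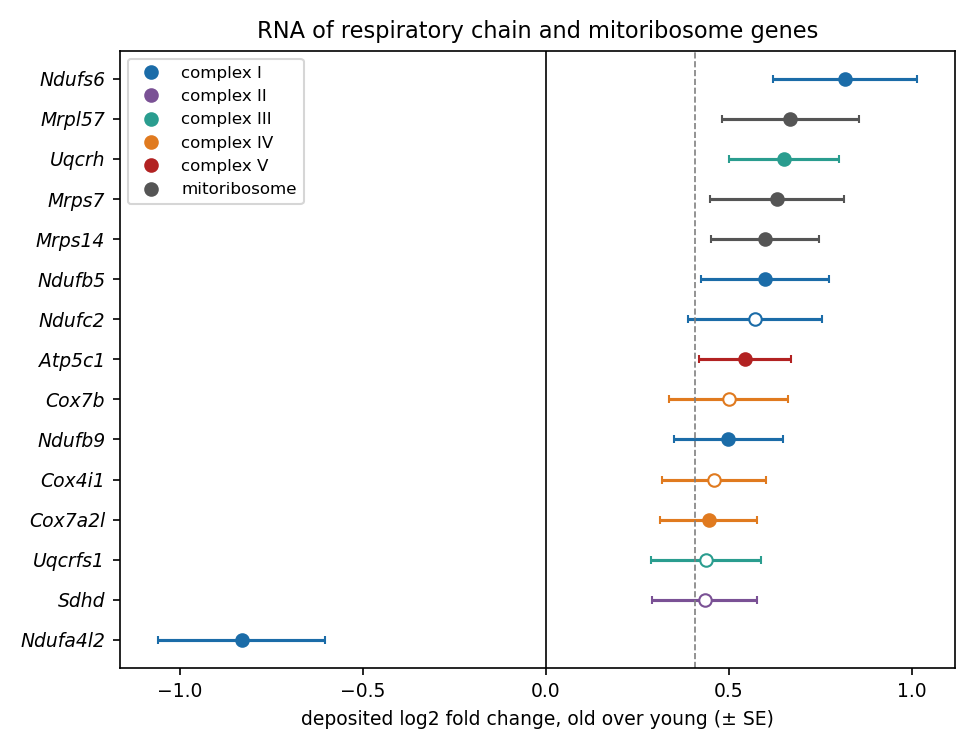
Each point is the deposited log2 fold change of RNA, old over young, of 1 of the 15 listed members named here, with its SE, coloured by complex, filled where the adjusted p is under 0.05 and open otherwise. The dashed line is the median of all 597 listed genes (0.41), and Ndufa4l2 alone lies below 0.

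H3K4me3 was lower in old cells at every member promoter tested, as it was at almost all promoters. With 1 promoter peak per gene (annotated within 1 kb of a start, the peak of highest level), 124 of 124 members were called lower, against 97.9% of 11585 genes with such a peak, so the count says nothing about the members. The median log2 fold change, old over young, was −1.38 for members and −1.43 for all genes in the authors' deposited table, and members ranged from −1.72 to −1.02. The median level, as log2 of normalized reads per peak, went from 11.01 in young to 9.68 in old cells for members and from 10.98 to 9.56 for all genes in the authors' deposited table. The authors used a normalization not given in the sources used here, so that a shift shared by all promoters cannot be told apart from a difference in scaling. Against the median of all promoter peaks (−1.42), 36 members lay below, 83 above and 5 at it, and the centred member median was 0.04 on the log2 scale.

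Group medians lay within a narrow range in the authors' deposited table: −1.34 in complex I, −1.39 in complex II, −1.38 in complex III, −1.33 in complex IV, −1.41 in complex V and −1.40 in the mitoribosome. The large and the small mitoribosomal subunit stood at −1.41 and −1.39. In complex I the most negative values were those of Ndufs8 (−1.62), an iron-sulfur subunit, and Ndufa13 (−1.60), and the least negative those of Ndufc2 (−1.02) and of the assembly factor Ndufaf1 (−1.06), in the authors' deposited table. In complex II the iron-sulfur subunit Sdhb stood at −1.57 and the flavoprotein Sdha at −1.34, and in complex III Uqcrc1 at −1.48, Uqcr11 at −1.38, Uqcrb at −1.30 and Uqcrc2 at −1.27, in the authors' deposited table. Values so close together, from 2 samples per age without a deposited error, give no order among the groups.

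Complex IV ran from Cox4i1 (−1.55) and Cox7c (−1.44) to Cox7a2l (−1.21) and Cox6b1 (−1.18) in the authors' deposited table. Complex V ran from the c-ring gene Atp5g1 (−1.64) and Atp5e (−1.59) to Atp5l (−1.26) and Atp5j2 (−1.24), and the mitoribosome from Mrps6 (−1.72) and Mrpl39 (−1.68) to Mrpl24 (−1.07) and Mrps18c (−1.06), in the authors' deposited table. Members with and without motif letters had about the same change, with medians of −1.38 and −1.39 for NRF1, −1.39 and −1.38 for ETS and −1.32 and −1.39 for YY1 from the authors' deposited table.

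**Figure D3:**
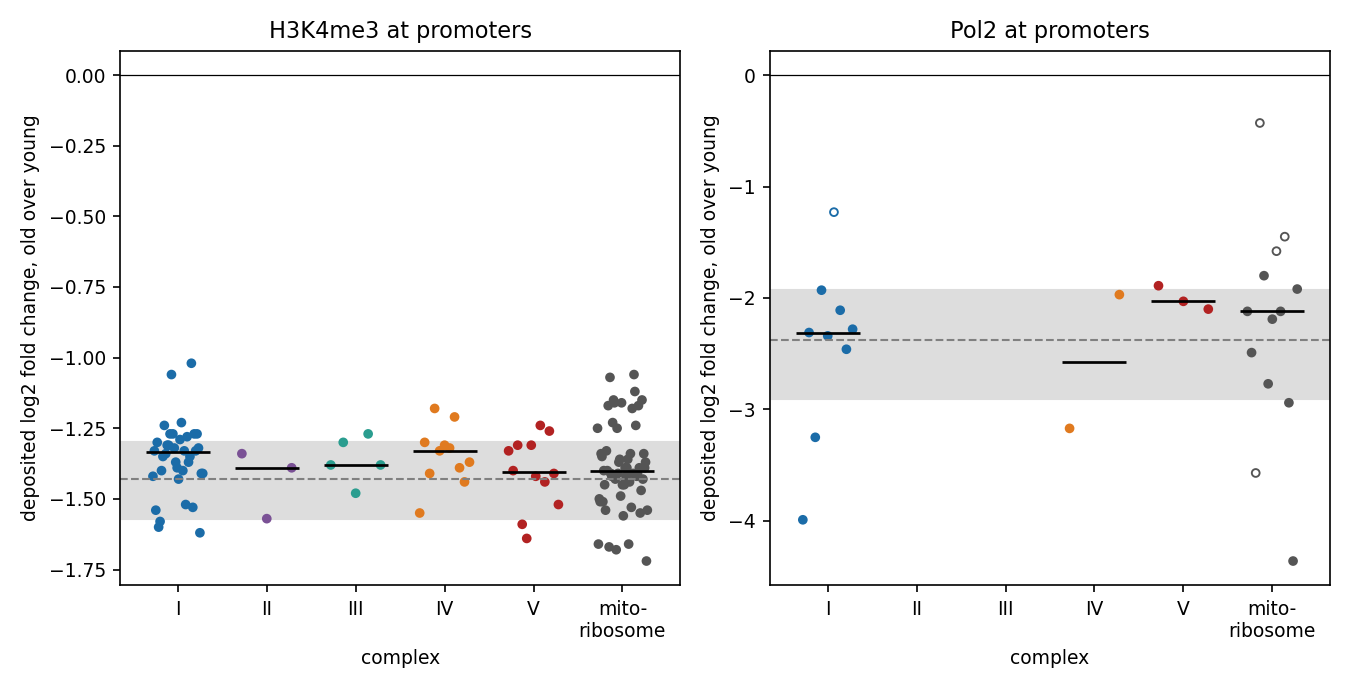
Each point is the deposited log2 fold change, old over young, at the promoter peak of 1 member, for H3K4me3 (left, 124 members) and Pol2 (right, 27 members), by complex, filled where the FDR is under 0.05. Black bars are group medians, the dashed line and grey band are the median and quartiles of all promoters, and the 2 vertical axes differ in range. Every point lies below 0.

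Several members shared their promoter peak with a neighbour. Of the 124 member H3K4me3 promoter peaks 30 (24.2%) held the start of another coding gene, against 10.8% of 11585. In 3 cases the partner matches the rule as well, so that Ndufb5 and Mrpl47, Ndufs6 and Mrpl36, and Mrps11 and Mrpl46 each stood in 1 peak, and these pairs are no independent values. Other partners also act in mitochondria, among them Timm8b of protein import beside Sdhd, the DNA helicase Twnk beside Mrpl43 and the seryl-tRNA synthetase Sars2 beside Mrps12. Because each peak is annotated to 1 gene, 36 of the 143 start sites lay in an H3K4me3 peak annotated to another gene, and that of Mrpl33 lay in 1 with no gene named. Atp5j, named in no table, lay in the peak of Gabpa, the gene for the ETS factor itself (H3K4me3 −1.58, Pol2 −2.70 in the authors' deposited table).

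This bears on the RNA-listed members, of which 13 had a promoter peak of H3K4me3 of their own, all 13 called lower, with a range from −1.55 to −1.02 in the authors' deposited table. The start sites of the other 3 lay in peaks of their neighbours, Uqcrh in that of Lrrc41 (−1.49), Mrpl57 in that of Ska3 (−1.59) and Mrps7 in that of Gga3 (−1.39), all called lower in the authors' deposited table. The 15 members listed with higher RNA in old cells thus each had less H3K4me3 signal at their promoter in the same comparison of ages, in separate libraries. With 97.9% of 11585 genes called lower for H3K4me3, these calls show nothing particular to the RNA-listed members. The median H3K4me3 change was −1.38 both for RNA-listed and for other members in the authors' deposited table.

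Pol2, the enzyme that transcribes protein-coding genes, was lower in old cells at most member promoters where it was found. It had a promoter peak at 27 members, of which 22 passed the threshold, all of them downwards. Of all 3168 genes with such a peak 87.6% were called lower. The median log2 fold change was −2.12 for members and −2.38 for all genes in the authors' deposited table. Of the 124 members with an H3K4me3 promoter peak 24 (19.4%) also had one of Pol2, against 25.8% of 11585 genes. In 23 of the 24 the Pol2 change was the more negative. The medians over all promoters differed in the same way, at −2.38 for Pol2 and −1.43 for H3K4me3. The share over all genes with both peaks was not counted, so the 23 are no trait shown for the members. As for H3K4me3, a shift shared by all promoters cannot be told apart from scaling. Against the median of all promoter peaks (−2.28, not limited to 1 peak per gene), 11 members lay below, 15 above and 1 at it.

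The 9 complex I members ran from Ndufa10 (−3.99, FDR 9.64e-06) and Ndufa2 (−3.25, 0.000428) to Ndufa7 (−1.93, 0.0217) and Ndufb10 (−1.23, 0.0957) in the authors' deposited table. In complex IV, Cox7a2l stood at −3.17 (FDR 0.000152) and Cox7c at −1.97 (0.0273) in the authors' deposited table. In complex V Atp5d, Atp5b and Atp5a1, all of the F1 part, stood at −2.10, −2.03 and −1.89 (0.0114 to 0.0258). A second Atp5d promoter peak, of lower level, stood at −3.24 (FDR 0.000429) in the authors' deposited table. Among 13 mitoribosome members, Mrps33 had the most negative value of all (−4.36, FDR 0.0268), and Mrpl18 (−3.57, 0.135), Mrpl49 (−1.58, 0.0854), Mrps18b (−1.45, 0.0515) and Mrpl24 (−0.43, 0.674) were not called in the authors' deposited table. Mrpl24 was thus near the upper end of the mitoribosome for both marks. No Pol2 promoter peak was annotated to a member of complex II or III, but the start sites of Uqcrh and Uqcr10 lay in Pol2 peaks annotated to Lrrc41 (−2.16) and Zmat5 (−3.20) in the authors' deposited table.

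H3K27me3 at these genes lay mostly outside promoters. The 44 members with a peak had 167 peaks, 132 of them distal intergenic and 7 at promoters within 1 kb. In all 8 peaks were called, 7 higher and 1 lower in old cells, where 5.26% of 67985 peaks were called, 2.66% higher and 2.6% lower. Of the 132 distal member peaks 6 were called higher, where 2.28% of 33204 distal peaks were. The median log2 fold change was 0.28 over member peaks and 0.12 over all peaks in the authors' deposited table.

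The 1 peak called lower was at the promoter of Cox4i2 (chr2:152753151-152756542), the isoform of subunit IV known from lung, with a level of 8.01 in young and 6.94 in old cells (log2 fold change −1.07, FDR 0.00301) in the authors' deposited table. At promoters overall 13.6% of 4580 genes were called lower. Cox6a2, the heart and muscle isoform of subunit VIa, also had an H3K27me3 peak over its start (6.45 and 7.0, log2 fold change 0.54, FDR 0.483) in the authors' deposited table, and neither gene had an H3K4me3 peak. Of the other tissue-restricted members, Cox6b2 of testis had an H3K4me3 promoter peak (−1.33, FDR 0.000503) and Cox8c of testis had distal H3K27me3 peaks only, with values from −1.24 to 1.77 and none called in the authors' deposited table.

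The 7 peaks called higher lay beyond 1 kb from the start of their gene, at Mrps6 (2.14), Mrps23 (1.97), Cox7a2l (1.95), Mrpl19 (1.82 and 1.39), Uqcrc1 (1.25) and Mrpl14 (0.61) in the authors' deposited table. Their distance to it ran from 2.458 kb at Cox7a2l to 67.711 kb at Mrps6. Their young levels ran from 4.23 at Mrps6 to 8.58 at Mrpl14 in the authors' deposited table, where the median of all H3K27me3 peaks was 5.77. The peaks of highest level were wide ones, at Mrps18a (11.08 in young and 11.12 in old cells, 23952 bp), Cox7a2l (10.01 and 10.00, 15707 bp) and Mrps22 (9.84 and 9.73, 10425 bp), and none of these was called in the authors' deposited table. Levels count reads per peak, so that wide peaks hold more.

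**Figure D4:**
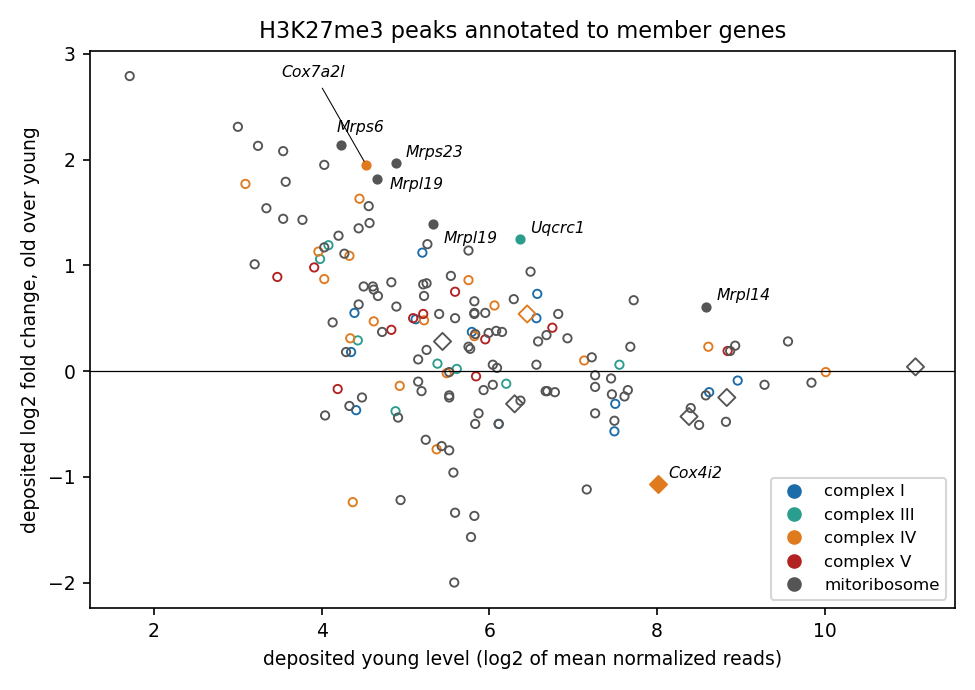
Each point is 1 of the 167 H3K27me3 peaks annotated to a member, with its deposited young level (log2 of mean normalized reads) on the horizontal and its log2 fold change, old over young, on the vertical axis. Diamonds are promoter peaks within 1 kb of a start. Filled points have an FDR under 0.05 and carry the gene's name, and of these Cox4i2 alone lies below 0.

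Promoters with both marks, the subject of the series title, were few. Of the 124 member H3K4me3 promoter peaks 10 (8.06%) overlapped an H3K27me3 peak by at least 1 bp, against 14.8% of 11585, and none (0%, against 8.4%) had 50% or more of its width under H3K27me3. Among the 10 were Mrpl10, Mrpl11, Mrpl23, Mrps10, Mrps18a, Mrps22, Mrps35, Ndufa4l2 and Ndufb8. At these 9 the share of the H3K4me3 peak that was covered ran from 3.62% at Mrpl11 to 32.3% at Mrps18a and was 22.5% at Ndufa4l2.

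ATAC-seq, which measures open chromatin, had 19 listed peaks at 16 members, 16 of them lower and 3 higher in old cells, where 85.9% of the 7849 listed peaks were lower. No source used here says whether the counts were scaled or thinned before deposit, so the reads below are the deposited counts as they stand. By the table's own annotation none was a promoter peak (15.8% of listed peaks were), 10 were distal, 7 intronic and 2 in an exon or 3′ UTR. They lay 3.33 to 1305.86 kb from the start of the nearest gene (median 19.95 kb), so the link to the gene rests on nearness alone. The authors' deposited table lists only peaks with a log2 ratio of at least 0.50 in size and a −log10 p of at least 2.00, so every listed peak had to differ. With edgeR without scaling 10 member peaks were called lower and 2 higher, against 46.4% and 5.43% of listed peaks. In 9 peaks all old libraries were below all young ones, and in 1 all were above, against 35.8% and 4.88% of listed peaks.

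In complex I, the highest peak was 12.246 kb upstream of Ndufaf6, an assembly factor (chr4:11088451-11091000), with 3125, 3226, 3162 and 3042 reads in the young and 2509, 2257, 1995 and 2103 in the old libraries. All old libraries were below all young ones, with a log2 fold change of −0.50 (edgeR FDR 0.0119). A second Ndufaf6 peak (chr4:11095801-11096350) had 338, 387, 409 and 263 young and 192, 263, 227 and 177 old reads (−0.70, edgeR FDR 0.0318), and the groups met at 263. At Ndufb4, a membrane arm subunit (chr16:37676001-37676800), the young libraries had 446, 420, 620 and 347 reads and the old 334, 150, 282 and 295 (−0.79, edgeR FDR 0.0286). Old was lower without overlap there. Peaks at Ndufa11 (−0.84, edgeR FDR 0.0543) and Ndufb9 (−0.61, 0.0556) were not called.

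Complex II had 1 peak, in intron 1 of Sdhb 3.33 kb from its start, with 225, 287, 242 and 252 young and 167, 201, 150 and 153 old reads (−0.58, edgeR FDR 0.0518). It was not called although the groups did not overlap. Complex III had no listed peak. The peak nearest to Cox7c of complex IV, 1305.86 kb away (chr13:87352651-87353200), had 165, 227, 208 and 179 young and 317, 302, 474 and 300 old reads (0.84, edgeR FDR 0.0222). It was the 1 peak in which all old libraries were above all young ones.

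In complex V, the c-ring genes had most peaks. The peak near Atp5g2 (chr15:102659901-102660400) had 182, 352, 270 and 244 young and 157, 136, 137 and 121 old reads (−0.93, edgeR FDR 0.0211), without overlap. Upstream of Atp5g3, 3 peaks lay within 103.375 to 114.925 kb, and share their neighbourhood. The farthest (chr2:74026251-74026750) had 151, 282, 247 and 245 young and 149, 127, 72 and 91 old reads (−1.07, edgeR FDR 0.0197), and the middle one (chr2:74020001-74020600) had 568, 490, 486 and 465 young and 338, 394, 325 and 239 old reads (−0.63, 0.0292). Both were lower in every old library, while the nearest one (−0.57, edgeR FDR 0.0634) overlapped between ages. At Atp5o, the stalk subunit, a peak with few reads had 49, 33, 52 and 90 young and 33, 18, 20 and 32 old reads (−1.12, edgeR FDR 0.0403), and the groups met at 33. The Atp5o site lay in an H3K27me3 peak annotated to no member (chr16:91961891-91975330). That H3K27me3 peak was called higher (0.77, FDR 0.00184) in the authors' deposited table, as were 2.66% of all H3K27me3 peaks.

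For the mitoribosome, an intronic peak of Mrpl33 (chr5:31633901-31635150) had 2032, 1990, 1911 and 1929 young and 1328, 1473, 1083 and 1392 old reads (−0.58, edgeR FDR 0.0119), without overlap. It coincided with a Pol2 peak that was called lower (−1.84, FDR 0.0232) in the authors' deposited table, as were 52.9% of all 6789 Pol2 peaks. A distal peak of Mrps33 (chr6:39781301-39782250) had 511, 558, 545 and 786 young and 474, 389, 392 and 252 old reads (−0.67, edgeR FDR 0.0281), without overlap. The peak in an intron of Trerf1 assigned to Mrps10 (chr17:47346151-47346500) had 133, 246, 148 and 198 young and 80, 153, 102 and 75 old reads (−0.82, edgeR FDR 0.0435), with overlap.

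In intron 1 of Mrps28 (chr3:8856801-8857550) reads were higher in old cells, with 229, 341, 534 and 252 young and 550, 465, 548 and 523 old reads (0.62, edgeR FDR 0.0432), and young replicate 3 lay within the old range. Peaks at Mrpl1 (−0.51, edgeR FDR 0.107), Mrpl48 (−0.57, 0.115) and Mrps35 (0.58, 0.103) were not called. Of the 19 peaks 4 overlapped an H3K4me3 peak, near Ndufaf6 (−1.19), Ndufb4 (−1.45), Mrpl48 (−1.16) and Mrps33 (−1.21), each called lower in the authors' deposited table. The H3K4me3 table annotates the one at Mrpl48 as a promoter peak, although the ATAC-seq table places the open site in an intron. Of all 21390 H3K4me3 peaks 79.1% were called lower, with a median of −1.37, so these 4 calls show nothing particular to the open sites.

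The directions above rest on the deposited counts with no scaling added, since the old libraries hold fewer reads over the listed peaks and a sum over selected peaks is no depth. With TMM scaling, which moves all log2 fold changes up by 0.59 at the median, 0 member peaks were called lower and 3 higher (Cox7c, Mrps28 and Mrps35), against 0.701% and 13.9% of listed peaks, and the first Ndufaf6 peak stood at 0.08. The 10 lower calls became 6 without young replicate 3, 3 without old replicate 3 and 6 without old replicate 4, and the 2 higher calls became 1 without young replicate 1, 2 or 4 or old replicate 1, 2 or 4, and 0 without old replicate 3.

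**Figure D5:**
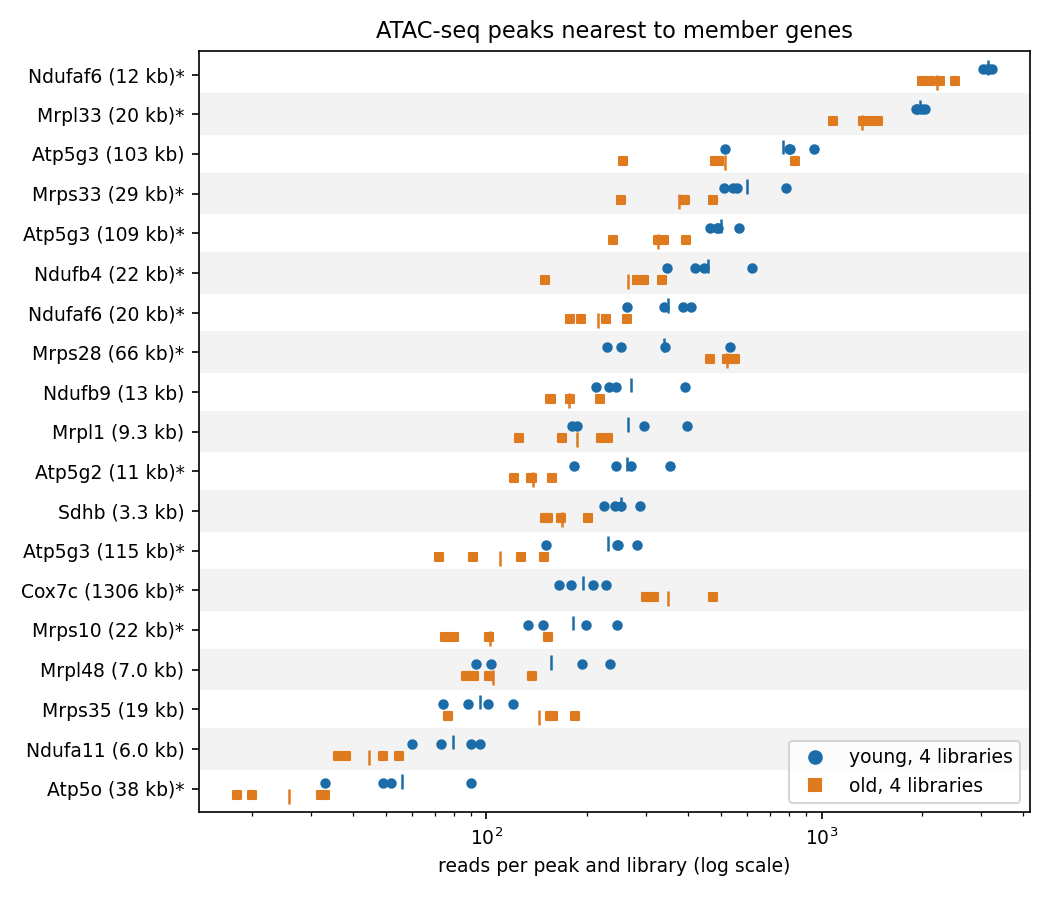
Each row is 1 of the 19 listed ATAC-seq peaks nearest to a member, with its distance to the start in kb and a star where the edgeR FDR without scaling is under 0.05. Circles and squares are reads in the 4 young and 4 old libraries on a log axis, and ticks are group means. Old means lie to the left of young means in 16 rows and to the right in the rows of Cox7c, Mrps28 and Mrps35.

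The 2 members in 4 tables can be followed across assays. Ndufb9 rose in RNA (0.50) while its promoter had less H3K4me3 (−1.37) and Pol2 (−2.46) in the authors' deposited table, and the ATAC-seq peak assigned to it, in an intron of Mtss1, had 243, 391, 232 and 213 young and 218, 177, 155 and 156 old reads. Cox7a2l rose in RNA (0.44) and fell in H3K4me3 (−1.21) and Pol2 (−3.17) at its promoter in the authors' deposited table. One H3K27me3 peak upstream of Cox7a2l rose from 4.53 to 6.48 (FDR 0.0459) in the authors' deposited table. None of its other H3K27me3 peaks was called (FDR 0.357 to 0.993), and the widest stood at 10.01 and 10.00. These assays used separate libraries, so the values stand side by side and were not tested against each other. As 97.9% of all promoters were called lower for H3K4me3 and 87.6% for Pol2, the lower values there are not particular to these 2 genes.

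Other nuclear genes of the pathway were mostly called lower in H3K4me3 and Pol2, and few were listed in RNA. Of 29 genes of mitochondrial protein import 3 were listed in RNA and all 3 called higher, where 38.0% of the 597 listed genes were. So few genes show no trait of the list. The largest were Hspe1 (0.76, adjusted p 0.000254), a mitochondrial chaperonin, and Timm22 (0.65, 0.0385), an inner membrane translocase, in the authors' deposited table. None of 38 assembly factors outside the rule, 27 mitochondrial translation factors and aminoacyl-tRNA synthetases, or 17 regulators of respiratory genes was listed in RNA. The counts that follow stand beside 97.9% of all H3K4me3 and 87.6% of all Pol2 promoters called lower, so they show nothing particular to these lists. All 16 regulators with an H3K4me3 promoter peak were called lower, most strongly Yy1 (−1.65), followed by Ppard, Hcfc1 and Ppargc1b (−1.59 each), and all 9 with a Pol2 promoter peak were called lower, most strongly Gabpb2 (−3.37) and Hif1a (−2.72), in the authors' deposited table. All 26 assembly factors with an H3K4me3 promoter peak were called lower, with Uqcc2 (−1.69) and Coa7 (−1.60) the most negative, in the authors' deposited table. So were 20 of 21 translation factors and synthetases, with Aars2 (−1.78) and Lars2 (−1.65) the most negative, in the authors' deposited table. At Pol2 promoter peaks 4 of 6 assembly factors, 3 of 3 translation factors and synthetases and 4 of 4 import genes were called lower. The assembly factors not called were Cox20 (−0.72, FDR 0.424) and Surf1 (0.15, 0.908) in the authors' deposited table.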

How the data were processed

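The RNA table came from STAR 2.5.2b, featureCounts and DESeq2 1.22.2, and the ChIP-seq tables from MACS2 2.2.7.1 and DiffBind 2.14.0, all on GRCm38 and per the submitters' processing notes. Per the file headers, the deposited RNA table gives the mean normalized signal, the log2 fold change of old against young, a test score and p-values. The deposited ATAC-seq table (BWA 0.7.12) gives counts per peak and library, a log2 ratio and a −log10 p-value, with a peak caller and test not given in the sources used here. For each merged peak the ChIP-seq tables (BWA 0.7.15, deposited) give log2 group levels, their log2 difference, turned here to old over young, p-values and FDR.

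ATAC-seq counts of all 7849 listed peaks were compared with edgeR 4.0.16 (quasi-likelihood, two-sided, equal library sizes, Benjamini-Hochberg, threshold 0.05), after a test on simulated data. Alternatives were TMM, DESeq2 1.42.0, a low-count filter, a replicate block and leaving out each library. P-values of edgeR, DESeq2 and DiffBind measure the spread between these samples. What the deposited ATAC-seq p-values measure is not known, as their test is not given. Overlaps used bedtools 2.31.1. Members and lists were chosen with earlier results of these data known. Named were all members listed in RNA or ATAC-seq, the 2 lowest and 2 highest promoter changes per group, members with a called or one of the 3 highest H3K27me3 peaks, tissue-restricted isoforms, members in 4 tables, and for other lists the 2 largest called changes. The values of 1 member that this rule names are not reported here. Shared promoters and start sites were looked at after the values were seen.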

Additional observations from a re-analysis of the deposited data

Results flagged for a closer look

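In 3 of the 38 groups of 4 ATAC-seq libraries at member peaks, 1 library stood apart from the other 3, its gap to the nearest one taking more than the 95% limit of the group's range. Chance flags about 5% of such groups. At the peak assigned to Ndufb9 the highest young library had 391 reads, and at the distal Mrps33 peak the highest young library had 786. At the peak nearest to Cox7c the highest old library had 474 reads, and the other 3 old libraries, with 300 to 317, also lay above all young ones.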

How the results depend on the processing

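Of the member counts, those for H3K4me3 held at 124 to 127 under each alternative, and the others moved with the threshold. At an adjusted p of 0.01 in place of 0.05, the 11 called RNA members became 4, the 22 Pol2 promoters 7, the 8 H3K27me3 peaks 5, and the 10 lower and 2 higher ATAC-seq peaks 0 and 0. Counting only promoter peaks within 1 kb of a start left 1 called H3K27me3 peak. Asking for 50% overlap took the promoters with both marks from 10 to 0. Less the median of all promoter peaks, the member medians turned to 0.04 for H3K4me3 and 0.16 for Pol2. Under TMM scaling and DESeq2's own size factors 0 ATAC-seq peaks were called lower, and peaks turned to 0.085 and 0.075 (Ndufaf6, the larger peak), 0.040 and 0.027 (Mrpl1), 0.020 and 0.0097 (Mrpl33) and, under TMM alone, 0.0040 (Sdhb) and 0.0016 (Mrpl48). With size factors of 1 DESeq2 called 13 lower. Leaving out 1 library at a time gave 3 to 9 lower and 0 to 2 higher calls. A replicate block left 2 lower and 0 higher calls, but same-numbered libraries did not deviate together (r from −0.19 to 0.04), and 0 of the 4 young libraries correlated best with their own number.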

Other observations

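The lists for glycolysis and the tricarboxylic acid cycle, which feed or bypass the respiratory chain, gave 1 gene listed in RNA between them. The cycle list leaves out the genes of succinate dehydrogenase, which are members, and Sdhd was listed in RNA (0.43, adjusted p 0.0763). It also holds genes of pyruvate dehydrogenase, such as Pdhb, which are not of the cycle itself. The authors' deposited table lists Gapdh at a log2 fold change of −0.36 (adjusted p 0.0749), opposite in sign to the 15 higher respiratory and mitoribosome genes and not called. Of all promoters 97.9% were called lower for H3K4me3 and 87.6% for Pol2, and the counts here show nothing particular to these pathways. At promoters all 18 glycolytic genes with an H3K4me3 peak were called lower (median −1.46), most strongly Pfkl (−1.69) and Aldoc (−1.64), and all 12 with a Pol2 peak were called lower (median −2.19), most strongly Pfkl (−3.26) and Pgam1 (−2.72), in the authors' deposited table. Of the cycle list, all 16 genes with an H3K4me3 peak were called lower, most strongly Suclg2 (−1.90) and Ogdh (−1.75), in the authors' deposited table. For Pol2, 4 of 5 genes of that list with a peak were called lower, most strongly Sucla2 (−4.24) and Pdhb (−2.50), in the authors' deposited table. The glucose transporter gene Slc2a3 was the 1 glycolytic gene with a called H3K27me3 promoter peak (−0.88, FDR 0.000261) in the authors' deposited table.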
